A study of Mus musculus with 6 samples.

Results

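The DNA damage repair and Fanconi genes are 30 genes that detect, signal and mend breaks and crosslinks in DNA. They were taken by name, although earlier results of these data were known when the members, classes and lists were chosen. Each was read by the brightest of the probe sets that the probe table maps to its symbol alone. All 30 had such a probe set, and all 30 passed the filter on low values, among 10824 genes tested. Each member was put in 1 class by role, although the pathways overlap and crosslink repair also uses recombination genes. Of the 30, 9 were put in Fanconi crosslink repair, 7 in homologous recombination and 6 in damage sensing and checkpoint signalling. End joining was given 5, single-strand break repair 2 and mismatch repair 1.

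The arrays came from adult mice of a mixed 129-B6 background with the genotype Mx1Cre;Ergkd/+;R26Y. Each animal thus carried 1 knockdown allele of Erg, a gene for an ETS transcription factor of blood stem cells, an interferon-inducible Cre and a Cre-dependent YFP reporter at Rosa26. From each of 3 mice (278, 279 and 281), 1 array measured YFP-positive LSK cells, labelled as Erg-restored to the wild-type level, and 1 array measured YFP-negative LSK cells, labelled as Erg-knockdown with about 40% less Erg. LSK cells are bone marrow cells without lineage markers that carry Sca-1 and c-Kit, a gate that holds stem cells and early progenitors. Both populations therefore share the Cre transgene, the knockdown genotype of the animal and the reporter, and a difference by Erg dose cannot be told apart from one by Cre action or by YFP itself. Differences are given as knockdown-labelled minus restored-labelled within a mouse, on the log2(intensity + 16) scale, where 1 is a doubling and dim genes are understated.

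As background, a crosslink that ties both DNA strands together blocks replication. The Fanconi core complex, built from proteins such as FANCA, FANCC, FANCE, FANCF, FANCG and the ubiquitin ligase FANCL, is brought to such a block with the help of FANCM and attaches ubiquitin to FANCD2 and FANCI. Breaks made during unhooking are mended by homologous recombination, which needs BRCA1, PALB2 and BRCA2, while end joining rejoins ends without a template. Inherited loss of Fanconi genes is known for bone marrow failure, and stem cells of the marrow are the cells that are lost.

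The quality of the arrays touches every value that follows. The restored-labelled array of mouse 279 had the highest log2 ratio of 3′ over 5′ control probe sets (0.707, against 0.471 to 0.540 on the other arrays). The restored-labelled array of mouse 279 read highest of all 6 for 38.9% of the genes tested, where the other arrays read highest for between 6.08% and 18.4%. It also read lowest for 24.7% of the genes, where the other arrays read lowest for between 11.5% and 17.7%. Summed intensity of 9 mature neutrophil markers was lowest on that array (16742) and highest on its partner, the knockdown-labelled array of mouse 279 (49847). Over the groups this sum ran from 16742 to 44912 in restored-labelled and from 24278 to 49847 in knockdown-labelled cells, with no marker at 0, although the labelled gate excludes lineage-positive cells. Summed B and plasma cell markers did not overlap between the groups, at 13664 to 14883 in restored-labelled and 15970 to 20395 in knockdown-labelled cells, with Pax5 at 0 on 1 array. Of the 5 that passed the filter 3 were higher and 2 lower. Jchain, Mzb1 and Sdc1 were higher in every mouse, while Cd79b was lower in every mouse. Erythroid markers were highest on both arrays of mouse 279 (6073 and 6244, against 1462 to 2996 on the other 4). Of 8 megakaryocyte markers 7 were lower in knockdown-labelled cells, 5 of them without overlap, at a median difference of -0.56. Their sum ran from 9927 to 13251 in restored-labelled cells, highest on the array of mouse 279, and from 9116 to 10252 in knockdown-labelled cells. Of 8 macrophage markers 5 passed the filter and all 5 had a lower mean, at a median of -0.38, with sums of 4602 to 6111 against 3226 to 5130. In mouse 279 only 2 of the 5 were lower, at a median of 0.082, and the sum over all 8 rose from 4602 to 5130. In bulk RNA, fewer cells of a type and less RNA per cell cannot be told apart. Of the gate's own markers, Kit read 4374, 3972 and 4572 in restored-labelled and 5206, 5131 and 4670 in knockdown-labelled cells, higher in every mouse and without overlap. Cd34 read 9268, 9134 and 8800 against 9512, 9194 and 9090, also higher in every mouse. Over 8 gate and stem cell markers the sum was 35206 to 35765 against 36533 to 38828, and 6 of the 8 were higher in all 3 mice. Slamf1 and Gata2 were higher in mouse 278 but lower in mice 279 and 281. The dim Slamf1 read 393, 577 and 487 against 546, 224 and 303. Ly6a, the gene of Sca-1, was not analysed here. A fall in Erg of the labelled size was not seen. The brighter of its 2 probe sets read 2731, 2901 and 2659 in restored-labelled cells and 2970, 2754 and 2706 in knockdown-labelled cells of mice 278, 279 and 281. Its difference was 0.024 ± 0.080 (SE, n = 3 mice, adjusted p = 0.936, limma). The dimmer probe set read 1859, 1542 and 1686 against 1820, 1331 and 1570, lower in all 3 mice with a mean difference of -0.11. Which part of the transcript each reads was not analysed here, so the groups are called by their labels.

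Promoter sequences describe the members by something that their names did not use. RefSeq entries of build GRCm38.p6, from 250 bases before to 50 after the start, were found for 26 of the 30 members. Windows were searched on both strands for CCGGAA, a form of the motif that ETS factors bind, for TTTCCCGC, TTTGGCGC and TTTCGCGC, forms of the E2F motif of S phase genes, and for TTTGAA, the cell cycle homology region of mitotic genes. The ETS form was present for 12 of 26 members (46.2%), against 14.9% of all windows of the same length and 32.6% of the 8841 tested genes with an entry. An E2F form was present for 7 of 26 members (26.9%), against 1.8% of all windows and 4.3% of tested genes with an entry. TTTGAA was found for 0 of 26 members, against 17.9% of all windows and 14.2% of tested genes with an entry. A gene was counted when any of its windows matched, so shares of genes and of windows differ in kind. Member windows were richer in G and C (median 59.7%) than all windows (52.7%), and a match describes letters, not a bound site. The windows below belong to the members with the lowest unadjusted p in limma on each side: Xrcc4 (chr13:90089559-90089858, minus strand), Fancg (chr4:43010252-43010551, minus strand) and Atm (chr9:53536622-53536921, minus strand) on the higher side, and Fancl (chr11:26386834-26387133, plus strand) on the lower side. They run 5′ to 3′ in the direction of the gene, with capitals for the ETS and E2F forms on either strand.
Xrcc4: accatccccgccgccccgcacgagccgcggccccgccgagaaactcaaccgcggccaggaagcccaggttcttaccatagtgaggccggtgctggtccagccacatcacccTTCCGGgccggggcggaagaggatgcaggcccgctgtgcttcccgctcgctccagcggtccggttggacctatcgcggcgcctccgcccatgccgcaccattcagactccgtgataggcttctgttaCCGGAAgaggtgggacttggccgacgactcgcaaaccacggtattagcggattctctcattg
Fancg: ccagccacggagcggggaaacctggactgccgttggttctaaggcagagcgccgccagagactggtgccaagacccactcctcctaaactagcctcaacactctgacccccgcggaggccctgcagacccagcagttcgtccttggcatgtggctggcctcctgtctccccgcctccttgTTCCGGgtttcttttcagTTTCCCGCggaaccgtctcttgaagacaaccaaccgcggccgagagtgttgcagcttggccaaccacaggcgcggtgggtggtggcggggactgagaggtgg
Atm: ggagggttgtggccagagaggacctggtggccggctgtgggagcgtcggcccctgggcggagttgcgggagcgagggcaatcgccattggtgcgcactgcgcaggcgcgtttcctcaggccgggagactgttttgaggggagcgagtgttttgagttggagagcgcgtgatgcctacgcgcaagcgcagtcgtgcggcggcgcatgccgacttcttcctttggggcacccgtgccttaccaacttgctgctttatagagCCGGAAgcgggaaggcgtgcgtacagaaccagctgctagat
Fancl: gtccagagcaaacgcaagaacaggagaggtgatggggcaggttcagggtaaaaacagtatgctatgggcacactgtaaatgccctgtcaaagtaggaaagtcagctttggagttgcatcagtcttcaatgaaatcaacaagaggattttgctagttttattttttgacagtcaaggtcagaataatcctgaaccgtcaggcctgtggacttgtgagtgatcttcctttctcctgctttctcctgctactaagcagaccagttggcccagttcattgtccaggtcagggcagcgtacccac
Xrcc4 held 2 ETS forms, Fancg 1 ETS and 1 E2F form, Atm 1 ETS form just after its start, and Fancl none. The 2 strands of the ETS form can overlap, as they do in the window of Fancm.

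The first question was whether any repair gene differed between the populations labelled by Erg dose. None of the 30 members passed: 0 had an adjusted p below 0.05 in limma, and the smallest adjusted p was 0.771. That was also the result for the whole table, where 0% of genes passed. At an unadjusted p below 0.05 stood 0 of 30 members, against 5.84% of all genes tested. The smallest unadjusted p of a member was 0.108 in limma, for Xrcc4. For 27 of 30 members the 95% interval lay within 1.5-fold either way. The exceptions were Xrcc1, Prkdc and Lig4. Mdc1 had the narrowest interval, reaching 0.19 log2 to each side of its value, and Xrcc1 the widest, reaching 0.82. In limma such widths also draw on the variance of all genes. That of Mdc1 is wider than its mice alone would give, with differences of 0.068, 0.041 and 0.018. Of the 30 members 19 were lower and 11 higher in knockdown-labelled cells, with a median difference of -0.044 log2, beside a median of -0.00015 over all genes. Centring the arrays shifted all genes together, to a median of -0.11, and then 27 members were lower and 8 changed sign.

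**Figure D1:**
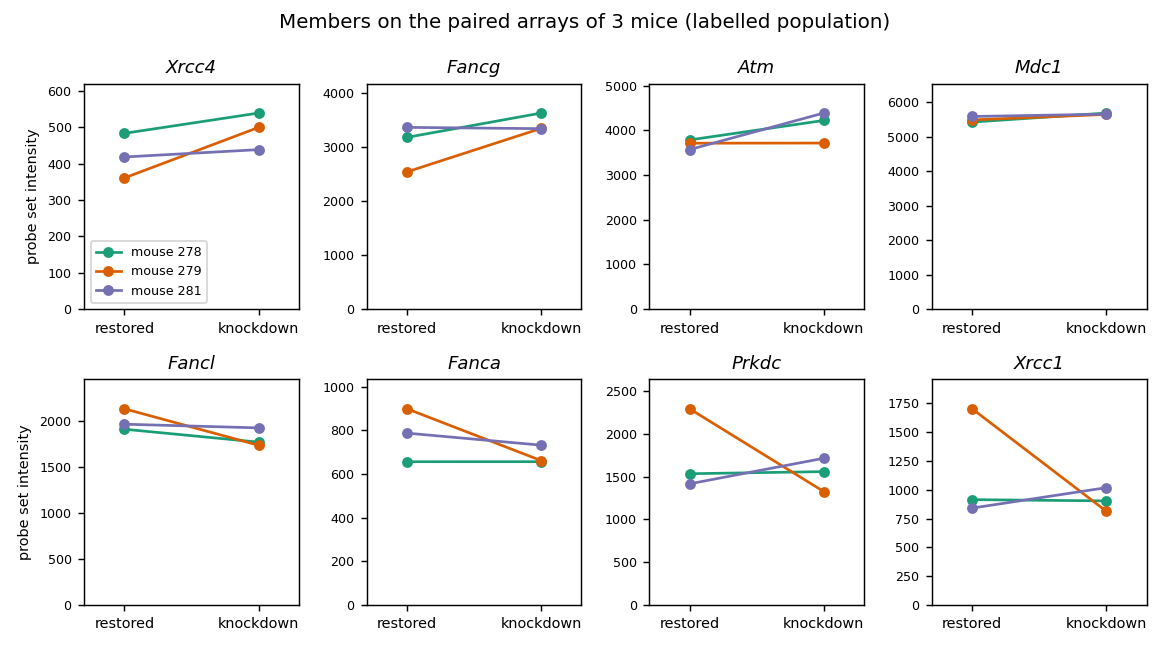
Linear probe set intensity (y axis, from 0) of 8 members in restored-labelled and knockdown-labelled cells (x axis), with 1 line for each of 3 mice. Xrcc4 and Mdc1 are higher and Fancl is lower on the right along all 3 lines, while the steep lines of Prkdc and Xrcc1 belong to mouse 279 alone.

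The Fanconi core complex genes stood lower in most cases, by amounts within the spread of the mice. Fancl, the ubiquitin ligase of the complex, read 1915, 2138 and 1970 in restored-labelled cells of mice 278, 279 and 281, and 1774, 1740 and 1930 in knockdown-labelled cells. It was the only member of the 30 that was lower in all 3 mice, against 12.4% of all genes. Its groups overlapped, and its difference was -0.14 ± 0.089 (SE, n = 3 mice, adjusted p = 0.771, limma). A second, dimmer probe set of Fancl went the other way, by 0.66 on average and upward in each mouse. Fanca, a core subunit, read 656, 898 and 787 against 656, 661 and 732, a difference of -0.18 ± 0.12 (SE, n = 3 mice, adjusted p = 0.773, limma). Most of that gap came from mouse 279, where it was -0.43, while mouse 278 gave 0.00016. The interval of Fanca allows a reduction of up to 29.3% and a rise of up to 10.5%. Fancc, another subunit, read 675, 640 and 571 against 545, 565 and 593, so it was lower in mice 278 and 279 (-0.30 and -0.18) and slightly higher in mouse 281 (0.055). Fance and Fancf, at -0.017 ± 0.13 and -0.029 ± 0.10 (SE, n = 3 mice), lay near 0.

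Fancg was the one core gene among the members with a higher mean in knockdown-labelled cells, although mouse 281 gave -0.010. It read 3185, 2545 and 3370 in restored-labelled cells and 3636, 3351 and 3346 in knockdown-labelled cells, a difference of 0.19 ± 0.11 (SE, n = 3 mice, adjusted p = 0.771, limma). The restored-labelled array of mouse 279 was the lowest for Fancg, which opposes most other members. Without that array and without a mouse term the difference was 0.071, and its direction held under each normalization tried, at 0.18 after quantile normalization and 0.085 with centred arrays.

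The FANCD2 and FANCI pair, the substrate of the core complex, and FANCM, the translocase that recruits it, split by mouse. Fancd2 read 552, 866 and 640 against 576, 597 and 815. It was lower by 0.53 log2 in mouse 279 and higher by 0.34 in mouse 281, and its mean difference of -0.042 ± 0.19 (SE, n = 3 mice) tells little of either. A second probe set of Fancd2 gave the reverse order, 0.43 in mouse 279 and -0.31 in mouse 281. Fanci read 2606, 3456 and 2576 against 2446, 2672 and 2784, with the restored-labelled array of mouse 279 well above the other 5. Fancm, at 771, 758 and 783 against 853, 713 and 823, had a difference of 0.042 ± 0.084 (SE, n = 3 mice). Together, 7 of the 9 crosslink repair members were lower, their median was -0.042, and 0 reached an unadjusted p below 0.05 in limma. With the restored-labelled array of mouse 279 left out and no mouse term, 6 of the 9 were higher, at a median of 0.030. In that fit 59.2% of all genes were higher, at a median of 0.024.

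Of the 7 homologous recombination genes, 5 were lower in mouse 279 and higher in mouse 281. Brca1, which directs break ends toward resection, read 2261, 2648 and 2178 in restored-labelled cells and 2116, 2042 and 2285 in knockdown-labelled cells. Brca2, a breast and ovarian cancer susceptibility gene, read 2810, 3660 and 2798 against 2939, 2927 and 3226. Their differences were -0.13 ± 0.11 and -0.018 ± 0.13 (SE, n = 3 mice), and in both genes the restored-labelled array of mouse 279 stood above all others. Other probe sets of Brca1 gave 0.20 and 0.19, so the sign of Brca1 depends on the probe set. Rad50 and Nbn, of the complex that first binds a break, were lower in mouse 279, from 3181 to 2259 and from 4021 to 3085. In mouse 281 both genes were higher in knockdown-labelled cells, from 2310 to 2622 and from 3238 to 3728. Brip1, a helicase partner of BRCA1, and Rad51c had differences of -0.066 ± 0.093 and -0.094 ± 0.10 (SE, n = 3 mice). Rad51c was higher in mouse 278 (0.11) and lower in mice 279 and 281 (-0.21 and -0.19). Palb2, which bridges BRCA1 and BRCA2, was the only 1 of the 7 with a higher mean. It read 1051, 935 and 932 against 921, 1119 and 1026, higher in mice 279 and 281 and lower in mouse 278. In all, 6 of the 7 recombination members were lower and their median was -0.091, beside 5416 of all 10824 genes lower. The sign turned in the 5-array fit given above for crosslink repair (median 0.013, with 5 of 7 higher) and without mouse 279 (0.011). The medians over all genes were 0.024 and 0.029 in these fits, so the recombination members stayed below them.

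Damage sensing and checkpoint genes held 3 of the 4 members that were higher in every mouse. Atm, the kinase that answers double-strand breaks, read 3784, 3711 and 3568 in restored-labelled cells and 4219, 3713 and 4385 in knockdown-labelled cells. Its difference of 0.15 ± 0.092 (SE, n = 3 mice, adjusted p = 0.771, limma) was close to 0 in mouse 279 (0.0011), and a dimmer probe set gave -0.082. Chek2, the kinase that ATM activates, read 1307, 1340 and 1286 against 1410, 1381 and 1312. Mdc1, which binds the histone mark laid down by ATM, read 5418, 5481 and 5580 against 5680, 5640 and 5648. Mdc1 was the only member whose groups did not overlap, against 15.2% of all genes. The difference of Mdc1 was 0.042 ± 0.070 (SE, n = 3 mice), and it turned to -0.065 with centred arrays. Atm, Chek2, Mdc1 and Xrcc4 were the 4 members higher in all 3 mice, against 19.8% of all genes. The kinase genes Atr and Chek1, which answer stalled replication, were lower in mouse 279 (-0.33 and -0.26) and higher in mouse 281 (0.20 and 0.11). Trp53bp1, which shields ends from resection, had a difference of 0.0049 ± 0.082 (SE, n = 3 mice). The median of the 6 was 0.024, and -0.083 with centred arrays.

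End joining genes pointed in different directions. Xrcc4, the scaffold of DNA ligase IV, read 483, 360 and 418 in restored-labelled cells and 539, 499 and 438 in knockdown-labelled cells, a difference of 0.22 ± 0.11 (SE, n = 3 mice, adjusted p = 0.771, limma). This probe set has the suffix _s_at, which Affymetrix gives to probe sets that can match transcripts of more than 1 gene, as has that of Chek1. The groups of Xrcc4 overlapped, the restored-labelled array of mouse 279 was again the lowest, and a dimmer probe set gave -0.098. Its partner gene Lig4, the ligase itself, read 340, 262 and 278 against 247, 379 and 240, so mouse 279 gave 0.51 while mice 278 and 281 gave -0.44 and -0.20. Prkdc, the catalytic subunit of DNA-PK, read 1534, 2294 and 1416 against 1559, 1326 and 1715. The Ku genes Xrcc5 and Xrcc6, whose products hold the broken ends, read 2411, 3601 and 2342 against 2608, 2728 and 3011, and 3961, 4493 and 3229 against 3582, 3384 and 3766. Prkdc and both Ku genes, which together make the DNA-PK holoenzyme, had the same order: lower in mouse 279 by 0.78, 0.40 and 0.41 log2 and higher in mouse 281 by 0.27, 0.36 and 0.22. The median of the 5 end joining members was -0.045. It turned to 0.049 in the 5-array fit that leaves out the restored-labelled array of mouse 279, and to 0.11 without mouse 279. Over all genes the medians were 0.024 and 0.029 in these fits.

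Single-strand break repair held the member with the widest range. Xrcc1, the scaffold of that pathway, read 914, 1704 and 841 in restored-labelled cells and 903, 814 and 1018 in knockdown-labelled cells. A single array, the restored-labelled one of mouse 279, lay far above the other 5, which ran from 814 to 1018. The difference of Xrcc1 was -0.27 ± 0.29 (SE, n = 3 mice) and, without that array and without a mouse term, 0.050 ± 0.11. Parp1, the sensor of such breaks, read 7206, 7387 and 6697 against 7136, 7187 and 7122 on its brightest probe set, where the difference was 0.012 ± 0.074 (SE, n = 3 mice). Its dimmer probe sets gave -0.12 and -0.13. Msh6, of the mismatch sensor, was the only mismatch repair member and read 6238, 6510 and 5736 against 6200, 6028 and 6527, a difference of 0.022 ± 0.093 (SE, n = 3 mice).

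**Figure D2:**
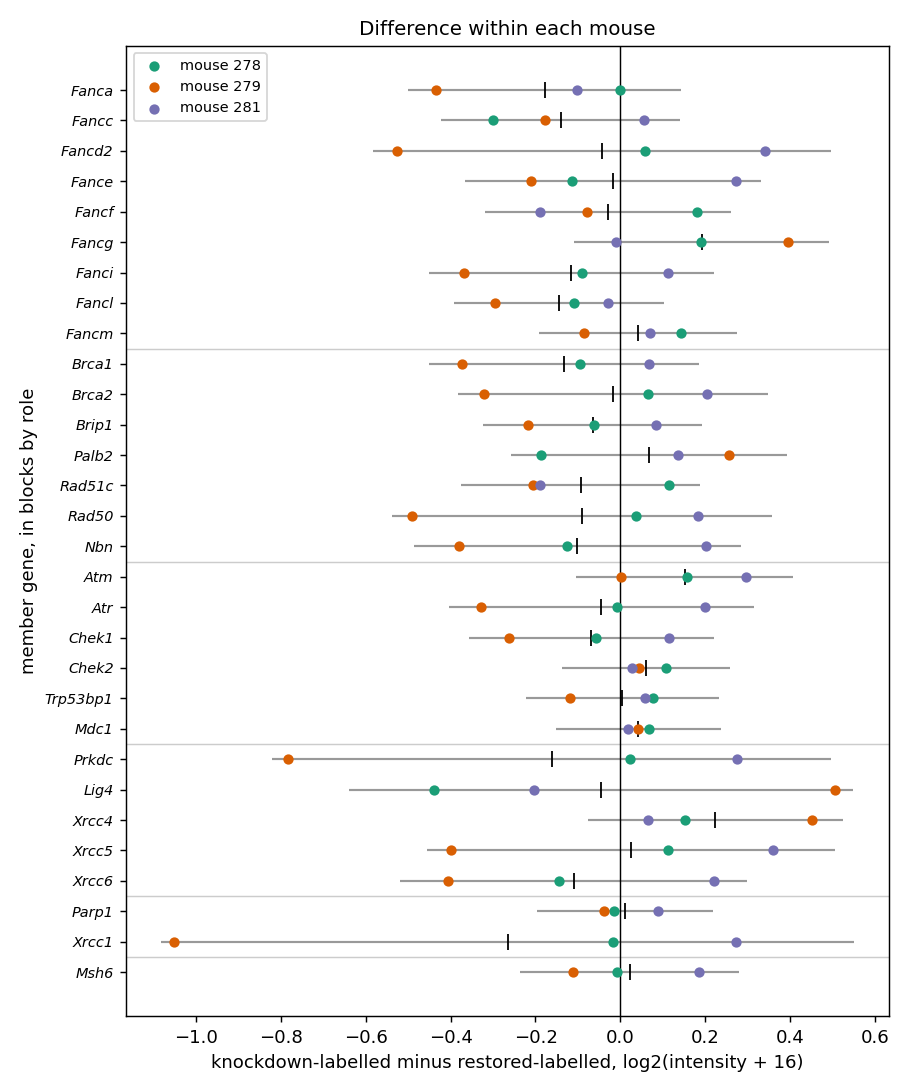
Difference between knockdown-labelled and restored-labelled cells (x axis, log2(intensity + 16)) for each of the 30 members (y axis, in blocks by role), with a point for each mouse, a tick for the mean and a line for the 95% interval of the limma fit. Every interval spans 0, and in most genes mouse 279 lies to the left and mouse 281 to the right.

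The direction of the members differed from mouse to mouse. In mouse 278 the members were evenly divided, with 15 lower and 15 higher and a median of -0.0036, beside 0.031 over all genes. Mouse 279 had 23 of 30 members lower (76.7%), at a median difference of -0.21, against 55.2% of all genes and a median of -0.044. Mouse 281 had 24 of 30 higher and 6 lower, at a median difference of 0.10, against 42.1% of all genes lower and a median of 0.032. A member that was lower in mouse 279 and higher in mouse 281 was the rule, with 19 of 30 members in that state against 34% of all genes. The reverse, higher in 279 and lower in 281, held for Fancg and Lig4.

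The values by array show where the members stood. The restored-labelled array of mouse 279 was the highest of 6 for 19 of the 30 members, against 38.9% of all genes. It was the lowest of 6 for 2 members, against 24.7% of all genes. It lay above the mean of the other 5 arrays for 23 members, by a median of 0.24 log2, where the median over all genes was 0.055. Xrcc1 (0.92), Prkdc (0.60), Xrcc5 (0.46) and Fancd2 (0.45) lay highest above that mean, and Fancg (-0.40) and Xrcc4 (-0.38) lowest below it. Over all 6 arrays the median range of a member was 0.39 log2, from 0.068 for Mdc1 to 1.05 for Xrcc1, and over the other 5 arrays it was 0.26. The medians over all genes were 0.41 and 0.27, close to those of the members. In a fit of the other 5 arrays without a mouse term, 22 of 30 members had a higher value, at a median difference of 0.045, against 59.2% of all genes higher and a median of 0.024. Xrcc5, at 0.22 ± 0.081, was the only member at an unadjusted p below 0.05 there (0.0418, limma), and 11 members changed sign.

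**Figure D3:**
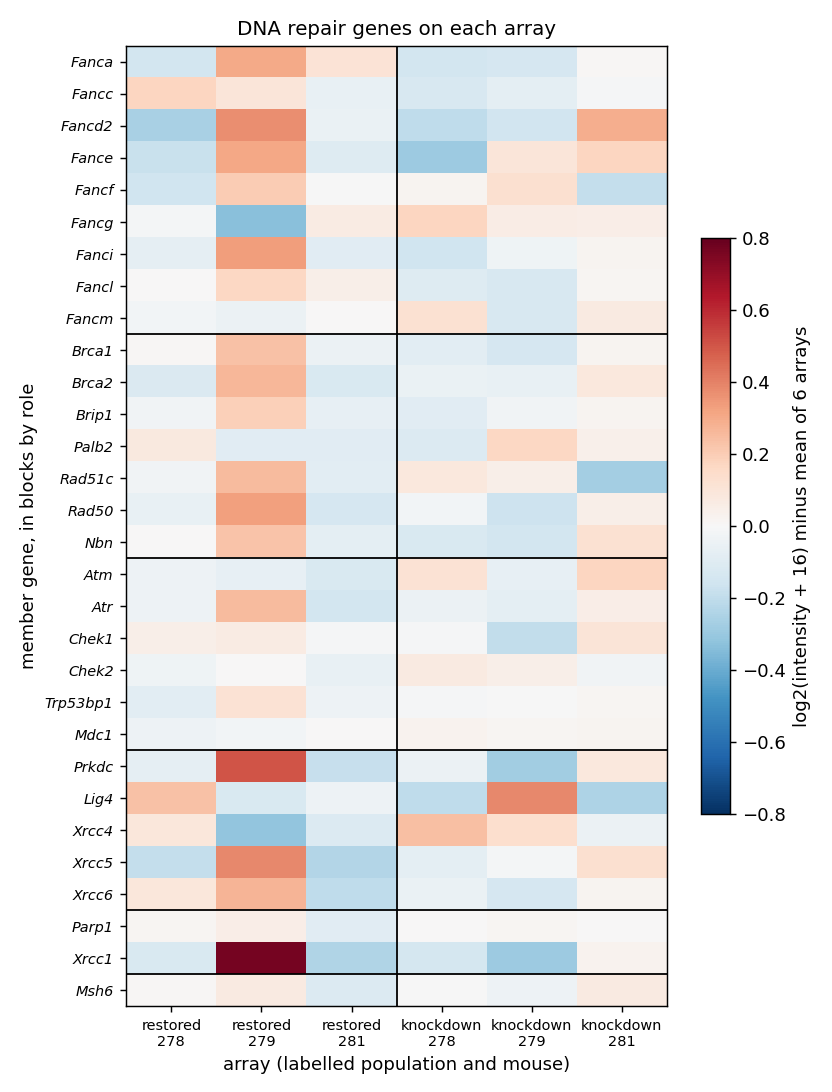
Level of each member on each array as the deviation of log2(intensity + 16) from its mean over 6 arrays (colour), with members in rows by role and arrays in columns by labelled population and mouse. The restored-labelled array of mouse 279 is red in most rows, deepest for Xrcc1, and blue for Fancg and Xrcc4.

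The same array also stood highest in genes of DNA replication. The median deviation of 29 S phase genes from their mean was 0.17 on the restored-labelled array of mouse 279 and between -0.064 and -0.0072 on the other 5. For the 30 members it was 0.20 there and between -0.081 and 0.027 elsewhere. Of the S phase genes 24 of 29 were lower in mouse 279, against 55.2% of all genes. In mouse 281, 23 of 29 were higher and 6 lower, against 42.1% of all genes lower. Mouse 278 had 20 of 29 S phase genes lower, against 15 of 30 members and 41.3% of all genes. The medians there were -0.034 for the S phase genes and -0.0036 for the members. Many repair genes are known to be transcribed in S phase. The part of cell cycle state and of the 3′ over 5′ ratio in the order of the arrays was not tested. Nor was that of RNA from neutrophils, B or plasma cells, erythroid cells, megakaryocytes or macrophages.

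The next question was whether crosslink repair, recombination, end joining and mismatch repair differ from each other. In mouse 279 the class medians were -0.21 for crosslink repair, -0.32 for recombination, -0.059 for damage sensing and -0.40 for end joining. In mouse 281 they were 0.055, 0.14, 0.086 and 0.22, and in mouse 278 0.00016, -0.061, 0.072 and 0.023. Among these 4 classes the spread over mice was smallest for damage sensing (SD 0.080) and largest for end joining (SD 0.32). Of the 6 pairs among these 4 classes, only crosslink repair against damage sensing had the same sign in every mouse, with crosslink repair lower by 0.072, 0.15 and 0.031, and a mean of -0.085 ± 0.061 (SD, n = 3 mice). Other genes of these pathways, described below, did not repeat that order in every mouse. In mice 278, 279 and 281 their medians were -0.023, -0.26 and 0.0072 for crosslink repair. For damage sensing they were -0.036, -0.16 and 0.0071. Crosslink repair minus end joining had a mean of -0.00031 ± 0.18 (SD, n = 3 mice) and recombination minus end joining of -0.031 ± 0.093 (SD, n = 3 mice). No pair was tested, since an exact two-sided sign-flip test over 3 mice cannot give a p below 0.25. Mismatch repair rested on Msh6, whose values of -0.0089, -0.11 and 0.19 in mice 278, 279 and 281 followed the common order.

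Other genes of these pathways were taken from lists of crosslink, recombination, end joining, mismatch, checkpoint and excision repair. Of 117 further repair genes, 104 had a named probe set and 100 were tested. None passed an adjusted p of 0.05 in limma, and 3 of the 100 stood at an unadjusted p below 0.05, against 5.84% of all genes tested. Apex2, an endonuclease of base excision repair, read 165, 161 and 198 in restored-labelled cells and 127, 120 and 167 in knockdown-labelled cells, a difference of -0.31 ± 0.076 (SE, n = 3 mice, adjusted p = 0.771, limma). These values lie close to the filter intensity of 143. Gtf2h3 and Ercc5, of nucleotide excision repair, were the other two, at 0.30 ± 0.083 and 0.33 ± 0.11 (SE, n = 3 mice, adjusted p = 0.771 for both, limma). Gtf2h3 read 854, 735 and 910 against 972, 914 and 1211, and Ercc5 read 1718, 1719 and 1742 against 2298, 1822 and 2434. The groups did not overlap in either gene, as in 15.2% of all genes. Ercc5, the nuclease that cuts on the 3′ side of a lesion, thus varied little among the restored-labelled arrays and more among the others.

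By list, 15 of 20 other crosslink repair genes were lower (median -0.093), as were 16 of 22 of recombination (-0.030) and 11 of 14 of damage sensing (-0.053), beside 5416 of 10824 genes in all. These medians were -0.0072, 0.0022 and -0.017 in the fit of 5 arrays without the restored-labelled one of mouse 279, with 9 of 20, 11 of 22 and 5 of 14 genes higher. Of all genes 59.2% were higher in that fit, at a median of 0.024. Base excision genes were lower in mouse 279 in 19 of 19 cases, against 55.2% of all genes, with a median there of -0.20. In the same fit of 5 arrays 9 of the 19 were higher, at a median of -0.017. Of 6 other end joining genes 4 were lower, at a median of -0.092, the same direction as the members. By mouse they went against the members, with medians of -0.027, 0.072 and -0.10 in mice 278, 279 and 281. Of 5 other mismatch repair genes 3 were higher and 2 lower, with a median of -0.30 in mouse 279 and 0.039 in mouse 281. Nucleotide excision repair had 12 of 14 genes lower by small amounts, with a median of -0.019, although Gtf2h3 and Ercc5 were higher. In the fit of 5 arrays 7 of the 14 were higher, at a median of 0.0036.

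**Figure D4:**
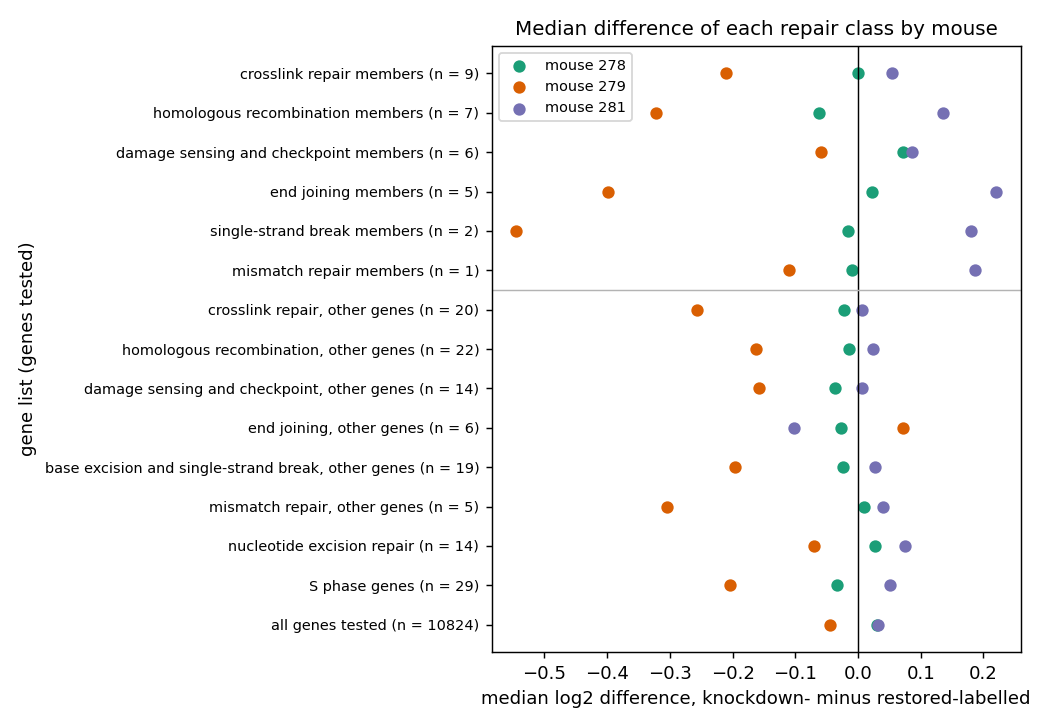
Median over genes of the log2 difference between knockdown-labelled and restored-labelled cells (x axis) for each repair class, for other genes of the same pathways, for S phase genes and for all genes tested (y axis), with a point for each mouse. Mouse 279 lies lowest in each list but the other end joining genes, and all genes tested lie within 0.044 of 0.

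The differences were also set beside the motifs in the promoters. The 12 members with an ETS form had a median difference of -0.023 and the 14 without one -0.043, and the medians in mouse 279 were -0.082 and -0.28. Over all tested genes with an entry these medians were -0.017 with the form and 0.0073 without it, and in mouse 279 -0.076 and -0.028, the opposite order to the members there. The 7 members with an E2F form had a median of 0.022 and the 19 without one -0.045, where all tested genes gave -0.018 and -0.0002.

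Agreement between probe sets limits how far the sign of a single gene can be read. Of 66 probe sets that name a member 53 passed the filter, and 13 members had more than 1. In 2 of these 13, Fance and Chek1, every passing probe set had the same sign of the mean difference. Dimmer probe sets of Atr ranged from -0.13 to 0.32 and those of Trp53bp1 from -0.045 to 0.37, around brightest values of -0.045 and 0.0049.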

How the data were processed

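LSK cells of 3 mice were measured on 6 Affymetrix mouse genome arrays after NuGEN Ovation V2 amplification, per the labels' protocols. The authors deposited linear probe set intensities, and their summary, background and normalization methods are not given in the sources used here. No depth lies behind an array value, so the number of arrays limits the precision. Of 45101 probe sets 64 controls were left out. A probe table names 34945 by 1 symbol and 932 by more than 1, while 9160 have no name here. Values were taken to log2(intensity + 16). Probe sets with a mean at or above the median (an intensity of 143) were kept, and the brightest stood for each gene, which gave 10824 genes.

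The comparison was fitted across all genes with limma 3.58.1 in R 4.3.3, with the mouse as a fixed block and Benjamini-Hochberg adjustment at 0.05. The fit and the motif search were tested on simulated data. The pairing comes from the labels. Deviations of same-mouse arrays from their group means correlated at 0.44 in mouse 278, -0.17 in mouse 279 and -0.29 in mouse 281. All members are named, and of 117 other pathway genes those at an unadjusted p below 0.05. The members, their classes and the lists were chosen with earlier results of these data known. Lists are described by counts and medians, without a test. Whether the mice were separate litters is not stated. Standard errors, intervals and p-values of the fit are moderated by limma. They combine the spread between these animals with a variance pooled over all genes tested. The 15 alternatives covered blocking, normalization, filter, probe set choice, moderation, array weights, the added value, each mouse left out, and the restored-labelled array of mouse 279 left out. Figures were drawn with matplotlib 3.10.9.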

Additional observations from a re-analysis of the deposited data

How the results depend on the processing

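No member and no other gene passed an adjusted p of 0.05 in limma under any of the 15 alternatives, and with no replicate block the count of members at an unadjusted p below 0.05 was 0, as with it, and that of all genes 634. By limma that count was 1 with centred arrays (Fanca, -0.29) and 1 with 5 arrays and no mouse term (Xrcc5), and between 0 and 1 without 1 mouse, where Lig4 came to -0.32 without mouse 279. With 1 mouse left out the median of crosslink repair lay between -0.20 (without mouse 281) and 0.010 (without mouse 279), and that of damage sensing was -0.083 with centred arrays. Without mouse 279, 13 members changed sign and 8 were lower. With array weights 4 changed sign, and with probe sets averaged per gene 5 did, among them Fancl at 0.26. The genes at an unadjusted p below 0.05 numbered 632, but 971 with centred arrays, 1083 without a filter and 258 without mouse 278. Of these 67.9% were higher, against 35.5% after quantile normalization and 14.7% with centred arrays. The filter at the upper 30% left 23 members. The number of arrays limits what can be seen: for Prkdc and Xrcc1 the intervals allow a reduction of 43.4% and 52.8%.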
